A study of Mus musculus with 24 samples.

Results

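The 7 transcription factors described here, Mesp1, Mesp2, Tbx6, Msgn1, Snai1, Snai2 and Twist1, act when cells of the early embryo become mesoderm and when epithelial cells turn mesenchymal. Their accessible chromatin was followed by ATAC-seq, which reads open DNA through the insertion of sequencing adapters by the Tn5 transposase. A peak was counted for a factor when its summit lay inside the gene body, or when it lay in no protein-coding gene and the factor had the nearest gene body within 50 kb. By that rule 170 of 518537 peaks belonged to the 7 genes. They fell into 29 sites, out of 128693 regions formed by merging the overlapping peaks of all lists. The rule used gene positions only and no measured level.

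All samples came from A2lox.cre, a mouse embryonic stem cell line built to take up inducible transgenes at a fixed locus. The 24 samples were 2 biological replicates at each of 12 time points of differentiation to heart muscle cells. These were 2i (stem cells kept naive with inhibitors), D0 to D8, which the labels call intermediates, and D10 and D15, which they call cardiomyocyte. The labels give no induced transgene or treatment between groups other than time, and 1 line was used. Both replicates of a time point share 1 deposited peak list, so the values come from 12 lists, have no replicate spread, and were not tested between time points.

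The lists held from 31324 peaks at D1 to 66993 at D7, and read depth is unknown. Among peaks with a fold enrichment near 5 the median −log10 p was lowest at 2i (7.69) and D4 (7.71) and highest at D3 (11.6), so an equal enrichment carried different statistical weight in different lists. A site that a list lacks was not called there, which does not show that it was closed. The labelled cell types were checked by peaks within 1 kb of marker gene starts. Naive stem cell markers had one at 6 of 6 genes at 2i and at 3 of 6 at D15. Over all 17274 protein-coding genes with a listed start, 10074 had one at 2i and 10109 at D15. Of 9 cardiomyocyte markers, 2 had one at 2i, D0 and D1, 3 at D2, D3 and D4, 7 (D5), 4 (D6), 5 (D7), 6 (D8) and then 3 at D10 and D15. They were thus called most in lists labelled intermediates, and the start of Myh6, a main cardiac myosin gene, had none in any list. Of 3 fibroblast and epicardial markers, 0 had one at 2i and D0 and 3 had one at D7, D8, D10 and D15. Of 3 smooth muscle markers, 0 had one at 2i, 3 from D5 to D8 and 2 at D10 and D15. Neural markers had one at 2 of 5 genes at 2i, at 5 of 5 at D2, D3, D4 and D7, and at 3 of 5 at D15. Endothelial markers had one at 2 of 4 genes at both 2i and D15, and definitive endoderm markers at 2 of 3 at 2i and 1 of 3 at D15. In bulk samples, a change in the share of cells of a type and a change within each cell cannot be told apart.

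In the mouse, mesoderm forms when epiblast cells leave the primitive streak through an epithelial-to-mesenchymal transition (EMT). SNAI1 and SNAI2 are zinc-finger repressors of the E-cadherin gene, and TWIST1 is a basic helix-loop-helix (bHLH) factor of mesenchyme. MESP1 and MESP2 are bHLH factors: MESP1 marks the first cardiovascular progenitors of the mouse embryo, and MESP2 acts in somite segmentation. TBX6, a T-box factor, and MSGN1, a bHLH factor, direct cells to presomitic mesoderm, the tissue that forms somites.

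The promoters of 4 of the genes are shown first, because the number of lists with a peak at their starts ran from 2 to 12. Each sequence runs from 250 bases before the transcript start to 50 bases after it, 5′ to 3′ on the strand of the gene, as given by RefSeq on GRCm38.p6. Capitals mark 4 motifs searched on both strands: the T-box core AGGTGTG, the TCF/LEF words CTTTGAT and CTTTGAA, the SNAI-type E-box CAGGTG, and the TATA box TATAAA. The E-box and the T-box core can share letters, but no hits in these promoters overlapped, and a match is a description and not a shown binding site. The Mesp1 promoter (chr7:79793541-79793840, minus strand), the Mesp2 promoter (chr7:79810477-79810776, plus strand), the Msgn1 promoter (chr12:11208899-11209198, minus strand) and the Snai1 promoter (chr2:167537945-167538244, plus strand) read:
Mesp1: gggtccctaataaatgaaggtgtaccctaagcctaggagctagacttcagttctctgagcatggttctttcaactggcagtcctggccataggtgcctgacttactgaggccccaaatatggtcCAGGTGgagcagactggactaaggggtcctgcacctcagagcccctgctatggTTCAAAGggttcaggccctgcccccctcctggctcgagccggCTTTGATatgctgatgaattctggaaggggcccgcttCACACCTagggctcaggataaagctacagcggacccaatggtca
Mesp2: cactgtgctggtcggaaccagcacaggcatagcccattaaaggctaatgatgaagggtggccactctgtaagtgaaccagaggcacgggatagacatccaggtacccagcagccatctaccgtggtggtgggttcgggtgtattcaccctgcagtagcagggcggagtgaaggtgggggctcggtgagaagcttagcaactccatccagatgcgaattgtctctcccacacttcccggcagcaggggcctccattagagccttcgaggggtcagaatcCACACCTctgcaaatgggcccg
Msgn1: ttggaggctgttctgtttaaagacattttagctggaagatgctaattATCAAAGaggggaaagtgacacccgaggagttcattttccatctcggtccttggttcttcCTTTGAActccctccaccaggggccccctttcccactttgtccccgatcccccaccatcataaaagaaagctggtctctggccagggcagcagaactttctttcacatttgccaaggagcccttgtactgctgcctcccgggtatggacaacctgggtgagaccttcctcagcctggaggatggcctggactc
Snai1: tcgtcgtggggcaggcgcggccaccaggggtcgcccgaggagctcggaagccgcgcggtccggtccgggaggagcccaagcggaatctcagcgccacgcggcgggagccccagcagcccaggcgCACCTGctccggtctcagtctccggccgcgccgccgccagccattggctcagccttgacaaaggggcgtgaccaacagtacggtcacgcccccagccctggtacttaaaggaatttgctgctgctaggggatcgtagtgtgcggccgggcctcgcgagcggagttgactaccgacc
The T-box core was found once in Mesp1 and once in Mesp2, both times within the bases after the start and as CACACCT on the printed strand. It was in 5.40% of the 17274 promoters searched, 1 per protein-coding gene. Mesp1 and Msgn1 each had 2 TCF/LEF words, which 7.88% of promoters hold at least once. The E-box was found once in Mesp1 and once in Snai1, against 19.5% of promoters. The word TATAAA was found once in Tbx6 and once in Twist1, whose promoters are not printed, against 13.4% of promoters. Its first base lay at −43 from the start in Tbx6 and at −126 in Twist1. The search took the word at any position, so a match is not a shown TATA box. RefSeq promoter entries matched 6 of the 7 genes, all except Snai2.

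The first question was how the 29 sites were spread over the course. With the lists as deposited they were called most from D3 to D8 and least at D0 and D1. The number of the 29 sites called was 8 (2i), 5 (D0), 4 (D1), 10 (D2), 14 (D3), 13 (D4), 14 (D5), 14 (D6), 15 (D7), 13 (D8), 7 (D10) and 10 (D15). As shares these were 27.6% (2i), 17.2% (D0), 13.8% (D1), 34.5% (D2), 48.3% (D3), 44.8% (D4), 48.3% (D5), 48.3% (D6), 51.7% (D7), 44.8% (D8), 24.1% (D10) and 34.5% (D15). Over all merged regions the shares called were 31.7% (2i), 27.0% (D0), 20.9% (D1), 25.2% (D2), 27.0% (D3), 38.0% (D4), 29.0% (D5), 21.6% (D6), 44.6% (D7), 34.9% (D8), 20.2% (D10) and 19.5% (D15). The sites of the factors were thus called less often than regions in general at 2i, D0 and D1 and more often in every list from D2 on, with the widest gap at D6. Among regions assigned to a protein-coding gene the shares were 34.3% (2i), 28.4% (D0), 21.4% (D1), 29.4% (D2), 32.5% (D3), 37.4% (D4), 32.4% (D5), 26.4% (D6), 50.7% (D7), 40.9% (D8), 24.0% (D10) and 23.6% (D15). Against these the factors' shares were closest at D7, D8 and D10, and the widest gap was again at D6. With 29 sites, a small gap is few sites, and no gap was tested.

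Set against list length, the late end of that window was less clear. Peaks of the factors per 1000 peaks of the list numbered 0.196 (2i), 0.173 (D0), 0.160 (D1), 0.305 (D2), 0.427 (D3), 0.339 (D4), 0.485 (D5), 0.518 (D6), 0.313 (D7), 0.336 (D8), 0.276 (D10) and 0.414 (D15), so D15 stood about level with D3 and above D4, D7 and D8. The Wilson 95% intervals were 0.0682 to 0.374 at D1, 0.324 to 0.830 at D6 and 0.251 to 0.683 at D15. At most they cover counting error, and those of D1 and D6 overlap. Each summit counts as 1 peak, and 1 called interval can hold several, such as 6 at D5 in the distal Twist1 site. The intervals treat these summits as independent. With only the 31324 top peaks of each list, the number in the shortest one, the factors had 4 (2i), 6 (D0), 5 (D1), 7 (D2), 12 (D3), 12 (D4), 14 (D5), 16 (D6), 11 (D7), 7 (D8), 9 (D10) and 13 (D15) peaks. The peaks at D7 and at D8 then numbered fewer than those at D15, and D8 was level with D2. Among the 29 sites, the 4 called at D1 were those at the starts of Mesp2, Snai1 and Twist1 and at the left end of Snai2.

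The sites away from the genes followed a like course with few early calls. For 21 of the 29 sites the summits lay outside the gene body. The number of these 21 called was 3 (2i), 1 (D0), 0 (D1), 4 (D2), 9 (D3), 7 (D4), 8 (D5), 8 (D6), 10 (D7), 8 (D8), 2 (D10) and 6 (D15). By a rule of 3 counts, 3 of 21, the 0 at D1 allows a share of up to about 14.3%. This rough bound is not a Wilson interval, and it does not separate D1 from the 14.6% of all such sites given below. As shares these were 14.3% (2i), 4.76% (D0), 0% (D1), 19.0% (D2), 42.9% (D3), 33.3% (D4), 38.1% (D5), 38.1% (D6), 47.6% (D7), 38.1% (D8), 9.52% (D10) and 28.6% (D15). Sites outside gene bodies over all protein-coding genes were called in 29.5% (2i), 21.6% (D0), 14.6% (D1), 21.6% (D2), 25.9% (D3), 30.8% (D4), 24.0% (D5), 17.1% (D6), 42.5% (D7), 31.3% (D8), 14.7% (D10) and 14.9% (D15) of cases. The factors' shares were the lower ones from 2i to D2 and at D10, and the higher ones from D3 to D8 and at D15. Of the 21 sites, 17 were absent from 2i, D0 and D1 together, and 15 were absent from both D10 and D15. No matching counts were taken over all genes, whose sites also lacked calls in most cases in each of these lists. These joint counts therefore describe the sites of the factors and show no difference from other genes.

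**Figure D1:**
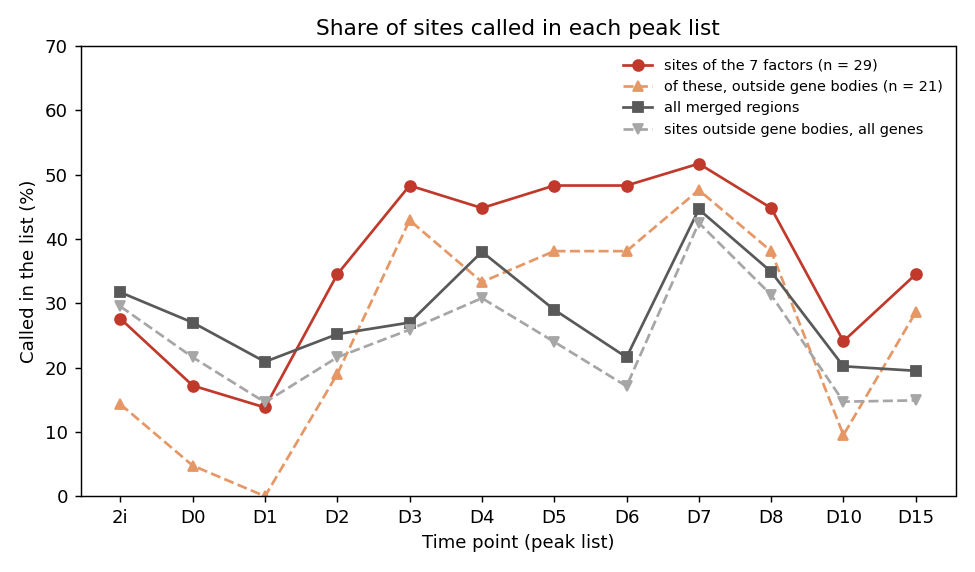
Share of sites called in each of the 12 peak lists (percent, y axis) from 2i to D15 (x axis), for the 29 sites of the 7 factors, the 21 of them outside gene bodies, all merged regions, and the sites outside gene bodies of all protein-coding genes. The 29 sites lie under all regions at 2i, D0 and D1 and above them from D2 to D15.

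Sites were then sorted into classes by the lists that called them. Transient sites had calls in 2 or more neighbouring lists between D1 and D8 but not at 2i, D0, D10 or D15. There were 8 among the 29, or 27.6% (Wilson 95% interval 14.7 to 45.7%), against 14.7% of all merged regions and 15.7% of regions assigned to a protein-coding gene. The lower bound of that interval lies at the background share. The interval treats the 29 sites as independent, but they lie at 7 genes and share the same 12 lists. It may therefore be too narrow, and it is not a test against the background. Outside gene bodies 7 of 21 sites were transient, against 16.4% of such sites over all genes. Snai1 had 4 of the transient sites, Mesp1 had 2, Msgn1 and Tbx6 had 1 each, and Mesp2, Snai2 and Twist1 had 0. In 6 of the 8, at least 1 call reached a −log10 q of 5. The Msgn1 site (4.95 at most) and the Snai1 site called at D7 and D8 only (4.85 at most) did not. The Tbx6 site had 6.96 at D4 but 1.76 at D5 and 2.08 at D6.

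The other classes held fewer sites or stood near the background. Late-gained sites, called at D10 and D15 and at neither 2i nor D0, numbered 2 (6.90%, against 3.80% of all regions and 4.11% of gene-assigned ones), 1 at Snai1 and 1 at Snai2. The class allows calls from D1 to D8. Its Snai1 site was first called at D3 and also from D5 to D8, so only the Snai2 site had its first call at D10. Early-lost sites, called at 2i and D0 and at neither D10 nor D15, numbered 0 (Wilson upper bound 11.7%, against 9.56% and 8.77%). That bound also treats the sites as independent. Sites called in all 12 lists numbered 3 (10.3%, against 8.62% and 11.4%), at Mesp2, Snai2 and Twist1. Sites in 1 list numbered 9 (31.0%, against 43.7% and 39.8%), and 7 had other patterns (24.1%, against 19.6% and 20.2%).

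**Figure D2:**
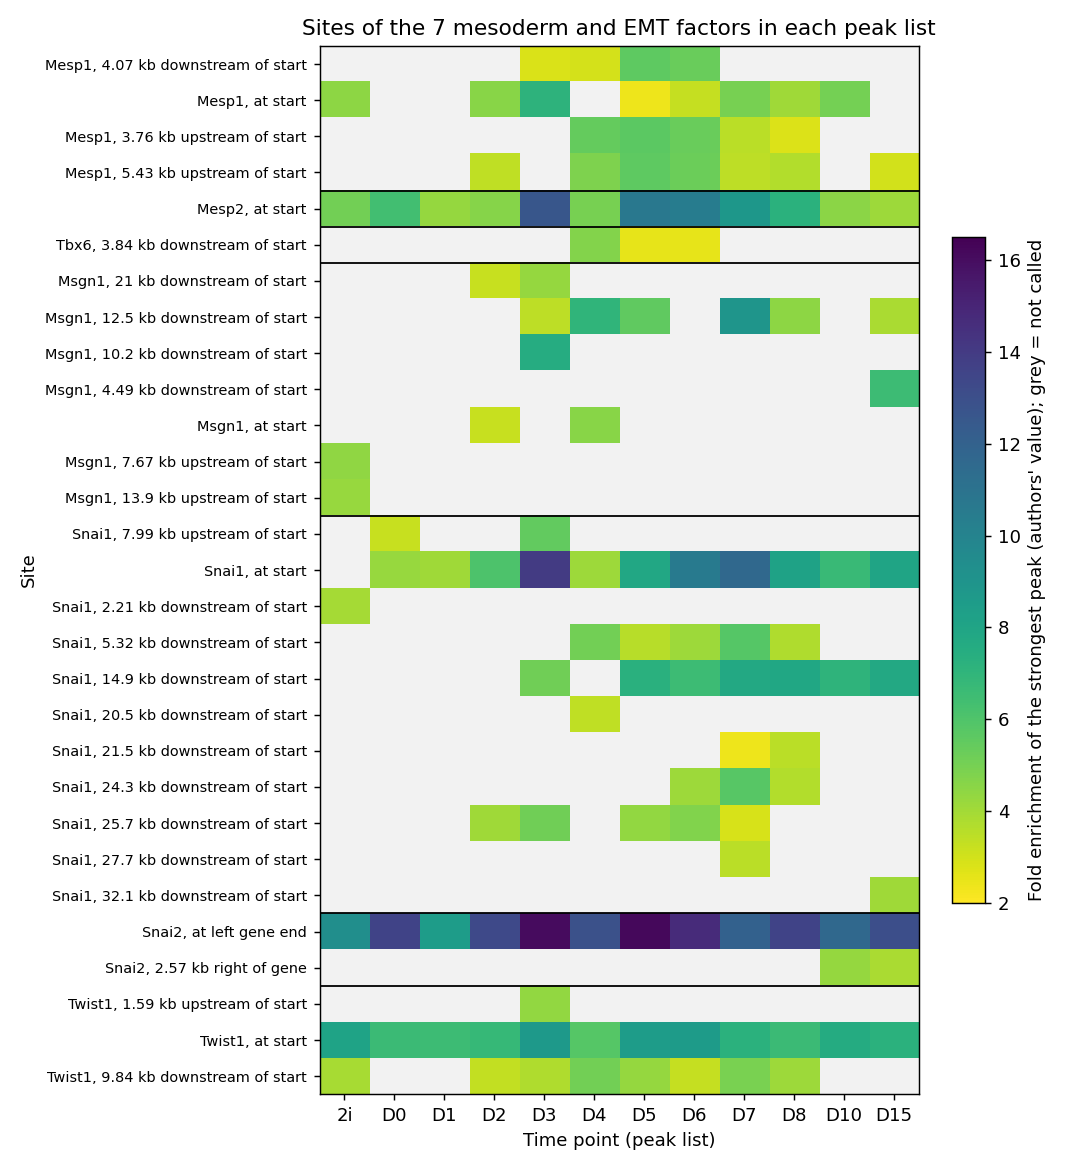
The 29 sites (rows, grouped by gene) in the 12 peak lists (columns, 2i to D15). Colour is the authors' fold enrichment of the strongest peak, and a light grey cell marks a list that did not call the site. Mesp2, Snai2 and Twist1 have a row filled from 2i to D15, while most rows outside the genes fill between D2 and D8.

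Peaks at gene starts divided the factors. A summit lay within 1 kb of the start in all 12 lists for Mesp2 and Twist1, in 11 for Snai1, in 8 for Mesp1, in 4 for Tbx6 and in 2 for Msgn1. Snai2, placed by its gene ends, had a peak at the left end in all 12. Of 17274 protein-coding genes with at least 1 start in the RefSeq table, 48.4% had such a peak in all 12 lists, 22.4% in 1 to 11 and 29.2% in none. Of the 6 factors with a start, 2 had it in all lists, 4 in 1 to 11 and 0 in none.

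CpG content of the promoters is set beside this order. CpG observed over expected is the number of CG pairs in the 300 bases relative to that given by the C and G content. It was 0.925 in Snai1, 0.827 in Twist1, 0.403 in Mesp2, 0.286 in Tbx6, 0.197 in Msgn1 and 0.174 in Mesp1. The Snai1 promoter held 34 CG pairs and that of Twist1 27, against 10 in Mesp2, 7 in Tbx6 and 4 each in Msgn1 and Mesp1. Over all promoters, by the first start listed for each gene, the median was 0.816 where a start peak was called in all 12 lists, 0.636 in 7 to 11, 0.308 in 1 to 6 and 0.161 in none. Mesp2 lay under the quartiles of the all-list class (0.677 and 0.943), and Mesp1 under those of the class with 7 to 11 lists (0.444 and 0.794). These are descriptions of single promoters, and no cause of the order was tested.

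**Figure D3:**
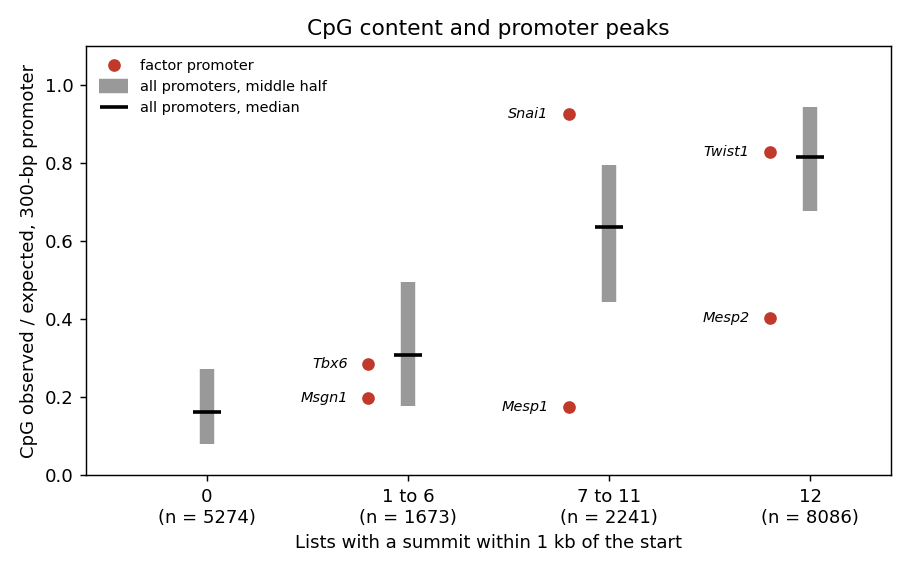
CpG observed over expected in the 300-base promoter (y axis) against the number of lists with a summit within 1 kb of the start (x axis, 4 classes). Red points are the 6 factors with a RefSeq promoter, grey bars span the quartiles of all promoters in a class, and black dashes are medians. Mesp1 and Mesp2 lie under the grey bar of their class, Msgn1, Tbx6 and Twist1 inside it, and Snai1 above it.

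Mesp1 (chr7:79792241-79793590, minus strand), which marks early cardiovascular mesoderm, had 4 sites and 29 peaks. It had 1 site called at 2i, 0 at D0 and D1, 2 at D2 and D3, 3 at D4, 4 at D5 and D6, 3 at D7 and D8, and 1 at D10 and D15. The start site (chr7:79792636-79793568) lies in the gene body, with the strongest summit of each list 188 to 628 bp downstream of the start. Fold enrichment, here and below the authors' value for the strongest peak of a site, was 4.48 (2i), 4.58 (D2), 7.10 (D3), 2.38 (D5), 3.26 (D6), 4.95 (D7), 4.09 (D8) and 5.05 (D10). The start was not called at D0, D1, D4 and D15. In each of the 8 lists that called it, between 45.7% and 99.4% of the peaks of that list had a higher fold enrichment, so it stood in the middle or lower part of every list.

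Upstream of Mesp1, between that gene and Mesp2, lie a pair of sites called mostly in the middle of the course. The nearer one (chr7:79797119-79797848) has its median summit 3.76 kb upstream of the Mesp1 start and was called from D4 to D8 and in no other list. Its fold enrichment was 5.45 (D4), 5.63 (D5), 5.31 (D6), 3.52 (D7) and 2.79 (D8). The 5 summits lay within 107 bp of each other. The farther one (chr7:79798591-79799513), 5.43 kb upstream, was called at D2, from D4 to D8 and at D15, with 3.41 (D2), 4.81 (D4), 5.61 (D5), 5.23 (D6), 3.43 (D7), 3.66 (D8) and 2.98 (D15). Its weakest calls had a −log10 q of 2.25 at D2 and 1.74 at D15, near the lowest value of the lists (1.3), against 30.8 at D5.

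The remaining Mesp1 site lies beyond the 3′ end of the gene (chr7:79789116-79789934), 4.07 kb downstream of the start, and was called from D3 to D6. Fold enrichment there was 2.80 (D3), 2.93 (D4), 5.57 (D5) and 5.31 (D6). The 3 sites outside the gene were all called at D4, D5 and D6, and none of the 3 was called at 2i, D0, D1 or D10. At D5 and D6 the start and all 3 outer sites were called together. The start had its lowest fold enrichment in these lists, 2.38 (D5) and 3.26 (D6).

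Mesp2 (chr7:79810727-79813431, plus strand), which acts in somite segmentation and lies 17.1 kb from Mesp1, had a single site, at its start (chr7:79810565-79811539), called in all 12 lists. Fold enrichment was 5.08 (2i), 6.39 (D0), 4.27 (D1), 4.61 (D2), 12.6 (D3), 4.98 (D4), 10.7 (D5), 10.4 (D6), 8.84 (D7), 7.26 (D8), 4.51 (D10) and 4.11 (D15). At D5 16.1% of the peaks of the list were higher, at D6 20.6% and at D3 23.7%, whereas at D1 69.6% and at D15 70.9% were. These are places within each list, and lists of different length and weight do not give a measured change. The summits lay 184 to 543 bp downstream of the start, beyond the T-box core in the printed Mesp2 promoter. By the assignment rule, neighbours Mesp1 and Mesp2 thus differed in number of sites, 4 against 1, and in calls at D0 and D1, 0 against 1 site in each list. The sites between the genes were counted for Mesp1 because its body is nearer, and which gene they serve was not tested.

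**Figure D4:**
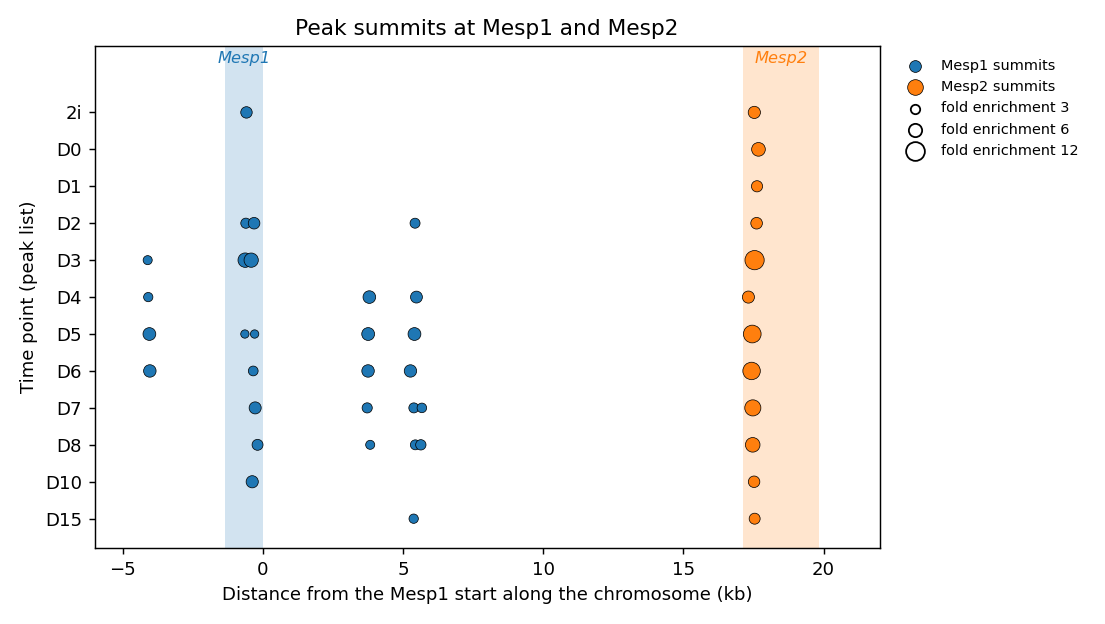
Peak summits at Mesp1 and Mesp2, by distance from the Mesp1 start along the chromosome (x axis, kb) and peak list (y axis, 2i to D15). Shaded bands are the gene bodies and point size follows the authors' fold enrichment. Mesp2 has 1 summit in each of the 12 lists, and the Mesp1 sites outside the gene have calls between D2 and D8 and 1 at D15.

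Tbx6 (chr7:126781483-126785548, plus strand), the T-box factor of presomitic mesoderm, lies among other genes and had 1 site, near its 3′ end (chr7:126784955-126785587). It was called at D4, D5 and D6 only, with a fold enrichment of 4.69 (D4), 2.51 (D5) and 2.54 (D6). At D5 99.0% and at D6 98.6% of the peaks of the list were higher, so these calls stood near the bottom of their lists. The 4 lists with a summit within 1 kb of the Tbx6 start were D6, D7, D8 and D15, and by the rule those summits belong to Ypel3, the gene upstream. They lay 593 to 863 bp upstream of the Tbx6 start, with a fold enrichment of 2.11 (D6), 3.37 (D7), 3.78 (D8) and 2.92 (D15). No summit of any list came within 500 bp of the start, and which gene these peaks serve was not tested. The neighbours Ypel3, Ppp4c, Aldoa, Mapk3 and Tlcd3b each had 1 site called in all 12 lists within 50 kb of Tbx6.

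Msgn1 (chr12:11208382-11208948, minus strand), the bHLH factor that acts with TBX6 in presomitic mesoderm, had 7 sites but few calls at each. It had 2 sites called at 2i, 0 at D0 and D1, 2 at D2, 3 at D3, 2 at D4, 1 at D5, 0 at D6, 1 at D7 and D8, 0 at D10 and 2 at D15. The start site (chr12:11208390-11209527) was called in 2 lists, with a fold enrichment of 3.19 (D2) and 4.58 (D4). The 2 summits lay 381 and 389 bp downstream of the start, and both calls were weak, with a −log10 q of 1.76 at D2 and 4.46 at D4. Of the 7 sites, 4 were called in 1 list only, 2 of them at 2i, 1 at D3 and 1 at D15.

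The most often called Msgn1 site lies 12.5 kb downstream of the start (chr12:11196081-11196860). Its fold enrichment was 3.44 (D3), 7.00 (D4), 5.55 (D5), 8.96 (D7), 4.48 (D8) and 3.84 (D15). At D7 21.1% of the peaks of the list were higher and at D4 22.4%, so in these lists it stood in the upper part. Another downstream site, 21 kb from the start (chr12:11187484-11188084), was called at D2 and D3, with 3.19 (D2) and 4.30 (D3), and was the transient one. Both lists with a call at the start, D2 and D4, also had a call at one of these outer sites. At D3 both of these outer sites were called without the start, and from D5 on all outer calls came without it. The sites called at 2i only also came without a call at the start.

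Snai1 (chr2:167538195-167542814, plus strand), the E-cadherin repressor needed for gastrulation in the mouse, had 11 sites and 47 peaks, the most sites of the 7 genes. Its start site (chr2:167537532-167538822) was called in every list except 2i, with a fold enrichment of 4.23 (D0), 4.06 (D1), 6.04 (D2), 14.0 (D3), 4.10 (D4), 7.83 (D5), 10.5 (D6), 11.6 (D7), 8.15 (D8), 6.65 (D10) and 8.06 (D15). At D7 11.3% of the peaks of the list were higher and at D1 76.6%. The strongest summits lay from 128 bp upstream to 68 bp downstream of the start, and all but the one at D0 fall within the printed Snai1 promoter. At 2i Snai1 had 2 summits in the gene body instead, at 1 site 2.21 kb downstream of the start, with a highest fold enrichment of 3.94.

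Of the 9 Snai1 sites outside the gene, 8 lay beyond the 3′ end, between 0.7 and 27.5 kb from it. The nearest (chr2:167543055-167544414) was called from D4 to D8, with a fold enrichment of 5.06 (D4), 3.57 (D5), 4.11 (D6), 5.81 (D7) and 3.70 (D8). It held 10 summits in 3 clusters: one near 5.14 kb downstream of the start was called in all 5 lists, and one near 5.78 kb from D5 on. Farther out, the site at 25.7 kb (chr2:167563584-167564420) had 4.05 (D2), 5.17 (D3), 4.37 (D5), 4.76 (D6) and 2.87 (D7). The site at 24.3 kb (chr2:167562327-167562855) was called at D6, D7 and D8, and that at 21.5 kb (chr2:167559538-167559979) at D7 and D8. Calls at 21.5 kb were weak, with a fold enrichment of 2.38 (D7) and 3.49 (D8) and a −log10 q of 1.53 and 4.85. These are the 4 transient Snai1 sites, and their first calls fell in 4 different lists, D4, D2, D6 and D7.

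The remaining distal Snai1 site called in more than 2 lists also had late calls. By the class rule this is the late-gained Snai1 site, though its first call was at D3. It lies 14.9 kb downstream of the start, 10.3 kb beyond the 3′ end (chr2:167552768-167553594), with a fold enrichment of 5.16 (D3), 7.29 (D5), 6.57 (D6), 7.77 (D7), 7.86 (D8), 7.07 (D10) and 7.74 (D15). At D10 29.8% of the peaks of the list were higher and at D15 21.8%, and the 7 summits lay within 168 bp. Upstream of the gene, a site 7.99 kb from the start (chr2:167530082-167530423) was called at D0 and D3, with 3.21 (D0) and 5.46 (D3).

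**Figure D5:**
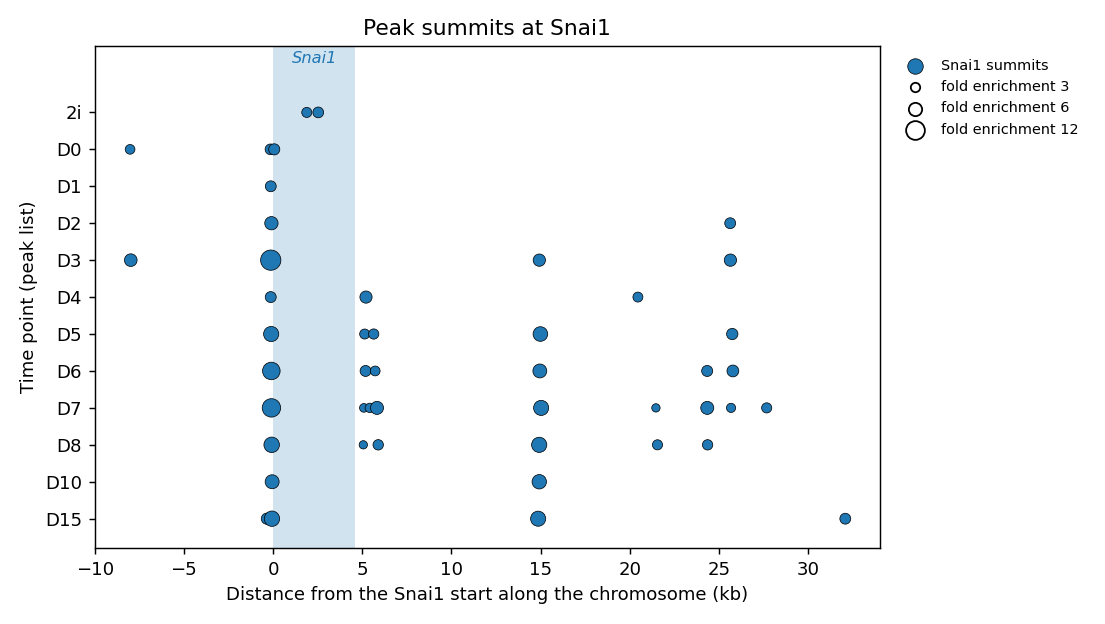
Peak summits at Snai1, by distance from its start along the chromosome (x axis, kb) and peak list (y axis, 2i to D15). The shaded band is the gene body and point size follows the authors' fold enrichment. The start is called from D0 on, the site at 14.9 kb in 7 lists up to D15, and the transient sites at 5.32, 21.5, 24.3 and 25.7 kb between D2 and D8.

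Snai2 (chr16:14705852-14709395), the paralog of Snai1 known from neural crest and mesenchyme, had 2 sites in a stretch with no other protein-coding gene within 50 kb. The site at its left end (chr16:14705032-14706313) was called in all 12 lists, with a fold enrichment of 9.33 (2i), 13.6 (D0), 8.47 (D1), 13.3 (D2), 16.1 (D3), 12.9 (D4), 16.2 (D5), 14.7 (D6), 12 (D7), 13.6 (D8), 11.6 (D10) and 13.0 (D15). This was above the 90th percentile of fold enrichment of its own list in 10 of 12 lists, all except D3 and D7. Of the other 6 factors, 0 strongest peaks of a site were above that level in any list. The other Snai2 site (chr16:14711854-14712341), 2.57 kb right of the gene, was called at D10 and D15, with 4.27 (D10) and 3.84 (D15). Both late calls were weak, with a −log10 q of 4.69 at D10 and 3.28 at D15. The fibroblast and epicardial markers Col1a2, Tcf21 and Postn all had start peaks at D10 and D15, but also at D7 and D8, where this Snai2 site was not called. The part of other cell types in these calls was not tested.

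Twist1 (chr12:33957671-33959831, plus strand), the bHLH factor of mesenchyme, had a broad start site, a broad distal site and 47 peaks in all. The start site (chr12:33956799-33958858) was called in all 12 lists, with a fold enrichment of 8.07 (2i), 6.59 (D0), 6.54 (D1), 6.77 (D2), 8.73 (D3), 5.83 (D4), 8.47 (D5), 8.52 (D6), 7.23 (D7), 6.64 (D8), 7.60 (D10) and 7.22 (D15). Between 13.1% and 37.5% of the peaks of each list were higher, so the start stood in the upper part of every list. Its 24 summits formed 6 clusters, of which one 0.021 kb downstream of the start was called in 10 lists and one 0.305 kb downstream in 7.

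The distal Twist1 site (chr12:33966497-33968901) lies 9.84 kb downstream of the start and was called at 2i and from D2 to D8, with 3.89 (2i), 3.34 (D2), 3.71 (D3), 5.08 (D4), 4.28 (D5), 3.25 (D6), 4.89 (D7) and 4.12 (D8). It held 1 summit at 2i and D2, 5 at D4 and 6 at D5. Among its 5 clusters of summits, the one 9.79 kb from the start was called from D2 to D8 in 7 of 7 lists and not at 2i, while the one 10.8 kb from the start held the 2i call. The distal site as a whole is therefore not transient by the class rule, but its most often called cluster has that pattern. That cluster is 1 of 5 at this site, and no share of clusters over all genes is given. Its calls at D2 and D6 were weak, with a −log10 q of at most 2.34 and 2.91.

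First calls at the sites outside gene bodies were spread over lists. Of the 21, 11 were first called at D2, D3 or D4, 3 of them at Mesp1, 3 at Msgn1, 4 at Snai1 and 1 at Twist1. Of the sites of the 7 genes, 10 were called at both D3 and D5, and 3 of these were not called at D4, namely the Mesp1 start and the Snai1 sites at 14.9 and 25.7 kb. The D4 list was one of those with the least statistical weight at equal enrichment, and the part of that weight in these gaps was not tested. First calls and gaps were not counted over all genes, so the numbers given here describe these sites only.

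Neighbouring sites were set beside those of the factors. Within 50 kb of the 7 gene bodies, 30 sites were assigned to other genes, among them Wdr93 and Anpep beside Mesp2, Ypel3 and Ppp4c beside Tbx6, Rnf114 and Spata2 beside Snai1 and Ferd3l beside Twist1. The shares of the factors' sites called, given above, ran from 13.8% at D1 to 51.7% at D7. Those of the neighbouring sites were 36.7% (2i), 30% (D0), 30% (D1), 50% (D2), 53.3% (D3), 56.7% (D4), 43.3% (D5), 50% (D6), 66.7% (D7), 60% (D8), 40% (D10) and 40% (D15). The factors' share was the higher one at D5 alone, with 48.3% for the factors and 43.3% for the neighbours, and both groups had their highest share at D7. Transient sites made up 27.6% of the factors' sites and 20% (6 of 30) of the neighbouring ones, and sites in all 12 lists 10.3% of the factors' and 23.3% of the neighbouring ones. Whether the 2 groups of sites differ was not tested.

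Other genes of the same steps were taken as lists, chosen with earlier results of these data known. A transient site was found at 4 of the 7 factors, at 11 of 14 primitive streak genes, 14 of 15 presomitic mesoderm and somite genes and 12 of 14 cardiac mesoderm genes and MESP1 targets. It was found at 11 of 12 EMT and mesenchymal genes and 9 of 10 epithelial genes, against 34.5% of all 21631 protein-coding genes. The lists differ in sites per gene, with 29 sites at the 7 factors and 135 at the 12 EMT genes. As a share of sites, transient ones were 27.6% at the factors, 30.1% at streak genes, 26% at presomitic genes, 23.8% at cardiac mesoderm genes, 20% at EMT genes, 22% at epithelial genes and 15.6% over all genes. Marker lists of other cell types had like shares, with 34.8% (8 of 23 sites) for smooth muscle, 27.3% (9 of 33) for neural, 26.7% (20 of 75) for cardiomyocyte and 21.7% (5 of 23) for definitive endoderm markers. Endothelial markers had 17.1%, fibroblast and epicardial markers 14.8% and naive stem cell markers 14.4%. The factors' share thus fell within the range of the lists of other cell types.

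The genes with most transient sites are named for each list. Among streak genes these were Lhx1 with 5 of its 7 sites, Gsc with 4 of 14 and Fgf8 with 4 of 7. Among presomitic genes they were Pax3 with 4 of 12, Ripply2 with 3 of 5 and Uncx with 3 of 11, where Ripply2 encodes a repressor that acts with TBX6 and MESP2 in mouse somite segmentation. Cardiac mesoderm genes were led by Kdr with 7 of 20, Gata4 with 6 of 16 and Ets1 with 5 of 18, and Kdr encodes a receptor for vascular endothelial growth factor. EMT genes were led by Zeb2 with 5 of 24, Twist2 with 4 of 16 and Cdh2 with 4 of 23, and Cdh2 encodes N-cadherin, which replaces E-cadherin in mesenchymal cells. Among epithelial genes, Cldn4 had 3 of 7, Cdh1 2 of 10 and Tjp1 2 of 16, and Cdh1 encodes E-cadherin. Late-gained sites were 2 of 29 (6.90%) at the factors, 15 of 143 (10.5%) at cardiac mesoderm genes, 9 of 135 (6.67%) at EMT genes, 3 of 59 (5.08%) at epithelial genes, 2 of 96 (2.08%) at presomitic genes and 0 of 93 at streak genes, against 4.22% over all genes.

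Genes with the most similar course were looked up for the 4 factors with at least 3 sites, by Pearson's r of the number of sites called over the 12 lists. Baiap2l1 (r = 0.95), Asb17 (0.95) and Nog (0.93) were most like Mesp1, and Lamc3 (0.96), Dnah2 (0.96) and Macrod1 (0.95) most like Snai1. For Msgn1 they were Slc17a9 (0.90), Syne3 (0.89) and Cenpf (0.83), and for Twist1 Ebf4 (0.92), Rnf220 (0.92) and Adgrb1 (0.91). All points share the lists and their lengths, so the values are descriptions without a test.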

How the data were processed

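The 24 samples, 2 biological replicates at each of 12 time points, were grouped by their titles. The submitters' processing notes name MACS2 2.1.1 and mm10, and also Picard, SAMtools 1.5, Bowtie2 2.3.2 and cutadapt 2.10. Their order and settings, read depth, the joining of replicates and any Tn5 shift are not given in the sources consulted. For each peak the authors deposited a fold enrichment (a linear ratio), −log10 values of p and q, a display score (not used) and a summit offset in bp. The labels name 1 list for both replicates. Signal tracks were not used here.

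Peaks that overlapped by at least 1 bp were merged across lists (Python 3.11.15, pandas 2.3.3, numpy 2.4.6). Gene bounds and starts came from RefSeq tables on GRCm38.p6, the assembly of mm10, and all 108 listed symbols were matched. Where several gene bodies held a summit, a factor came first, then the body with the nearest end; the sites of the factors held no summit of another gene. Start peaks had a summit within 1 kb. Assignment, merging and classes were tested on simulated data. The members, gene lists and motifs were chosen with earlier results of these data or the sequences known. Genes named are the 7 factors, up to 3 per list with most sites of a class, neighbours with a summit in their body within 50 kb, and the 3 genes with at least 5 sites most like a factor. No test between lists was run. Alternatives were a −log10 q of at least 5, equal numbers of top peaks by −log10 p, assignment within 20 and 100 kb, summits clustered at 150 bp, start windows of 500 bp and 2 kb, and leaving out D4 or D7.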

Additional observations from a re-analysis of the deposited data

How the results depend on the processing

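No paired analysis was possible because both replicates of a time point share 1 peak list, and for the same reason no replicate could be left out. Assignment within 20 or 100 kb, a start window of 2 kb, and leaving out the D4 or the D7 list kept every count of sites, peaks and start lists within 1.5 times. Keeping peaks whose −log10 q reached 5 left the 7 factors with 3 peaks (2i), 4 (D0), 3 (D1), 5 (D2), 11 (D3) and 12 (D4), and with start peaks in 2 lists for Tbx6 and 0 for Msgn1. Keeping the 31324 top peaks of each list left 4 (2i), 7 (D2), 12 (D4), 11 (D7) and 7 (D8), with 9 at D10 and 13 at D15, 1 late-gained site, and the same 2 and 0 start lists. Both settings use fewer peaks. Clustering summits at 150 bp gave 48 sites, since wide sites then split. The transient share, 27.6% in the main setting, was then 22.9% (11 of 48). It was 40.0% (8 of 20) at a −log10 q of at least 5 and 30.4% (7 of 23) with equal numbers of top peaks. No background share is given for these settings. With a window of 500 bp the Tbx6 start had a peak in 0 lists. Depth is unknown, and 56 of the 170 peaks had a −log10 q under 5.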
